A study of Mus musculus with 4 samples.

Results

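Mouse transcripts that only the Ensembl catalogue carried in these tables, and whose genes have provisional names, were followed over LIF withdrawal from embryonic stem cells. The members were the transcript rows with an Ensembl transcript ID (ENSMUST) and a mouse gene symbol that starts with Gm and digits or ends in Rik. They numbered 3204 of the 35656 transcript rows, 2589 with a Gm name and 615 with a Rik name, and belonged to 2648 gene symbols. For 25 members the symbol also had a RefSeq row. The cells were CJ9 mouse embryonic stem cells of strain 129S4/SvJae, of wild-type genotype, their titles adding Cas9 only, with LIF (leukemia inhibitory factor, which keeps mouse embryonic stem cells undifferentiated) withdrawn for 4 or 6 days. Each day had 2 libraries, replicates 1 and 2, of poly(A) RNA made with a stranded kit. The culture text of the labels puts the time without LIF at 2 and 6 days for day 4 replicates 1 and 2, and at 4 and 6 days for day 6 replicates 1 and 2. It thus differs from the titles for 3 of the 4 libraries, and the titles were used. Separate cultures are not mentioned in the labels, so every p-value here reflects the spread between 2 libraries a day, which may be technical. The deletion cells of the Evx1as/Evx1 locus that the series was designed around were not analysed here.

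Gm and Rik symbols are placeholders given to mouse genes that were predicted from sequence or found as full-length cDNA clones, before a function is known. Many are long non-coding RNAs: antisense transcripts that run across a known gene on the other strand, transcripts that start beside a coding gene and run away from it, or intergenic transcripts (lincRNA). Some overlap retrocopies, which are reverse-transcribed, intron-less copies of messenger RNAs, and reads from such a copy and from its parent gene are hard to separate.

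The sequences of 2 members show how closely some of these transcripts match an abundant messenger RNA, and those of a further 3 show near-identical copies. Gm26825 is annotated as a lincRNA of 2026 bases at chr5:5781530-5783636 (plus strand, mm10). Its longest single alignment to the complement of Hspa8 was 1940 positions long at 99.6% identity, with 5 mismatches and 3 gaps. Over all aligned stretches, 100% of the member aligned to Hspa8. Hspa8 encodes a constitutive cytosolic heat shock protein of the HSP70 family. Gm26619, a lincRNA at chr13:97751112-97760965 (plus strand), aligned over 542 of its 1073 bases to the complement of Rps18, a protein of the small ribosomal subunit, at 99.1% identity. Below, each member is given over 120 bases of a single exon beside the reverse complement of the coding sequence it matched, from GENCODE M21 transcripts, 5′ to 3′, with capitals on the bases that differ. The member stretches were chr5:5781997-5782116 and chr13:97760133-97760252. The gene stretches crossed an exon junction, at chr9:40804281-40804499 for Hspa8 and chr17:33952046-33952267 for Rps18, so the intron of the gene was not in the member.
Gm26825: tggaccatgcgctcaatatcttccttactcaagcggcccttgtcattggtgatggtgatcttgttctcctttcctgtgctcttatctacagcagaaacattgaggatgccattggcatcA
Hspa8: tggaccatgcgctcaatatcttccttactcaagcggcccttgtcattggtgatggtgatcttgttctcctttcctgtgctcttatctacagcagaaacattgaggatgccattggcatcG
Gm26619: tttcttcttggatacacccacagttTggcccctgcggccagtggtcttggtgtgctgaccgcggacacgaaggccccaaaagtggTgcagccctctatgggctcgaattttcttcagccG
Rps18: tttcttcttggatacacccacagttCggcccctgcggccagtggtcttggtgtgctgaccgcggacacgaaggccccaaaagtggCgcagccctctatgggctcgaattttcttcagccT
The stretch of Gm26825 differed from its gene at 1 of the 120 bases and that of Gm26619 at 3.

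Gm26650, Gm26680 and Gm26552 are processed transcripts of 676 bases on chromosome 14 that are copies of one another, with transcript identities of 99.3%, 99.0% and 98.8% over the pairs. Their promoter windows, from 250 bases before to 50 after the RefSeq start (RefSeq, GRCm38.p6), are given because 2 of the copies were among the members with the largest differences towards day 6. They lay at chr14:4930390-4930689 (minus strand), chr14:6683976-6684275 (plus strand) and chr14:5221688-5221987 (minus strand). Capitals mark bases of Gm26680 and Gm26552 that differ from, or have no partner in, the window of Gm26650.
Gm26650: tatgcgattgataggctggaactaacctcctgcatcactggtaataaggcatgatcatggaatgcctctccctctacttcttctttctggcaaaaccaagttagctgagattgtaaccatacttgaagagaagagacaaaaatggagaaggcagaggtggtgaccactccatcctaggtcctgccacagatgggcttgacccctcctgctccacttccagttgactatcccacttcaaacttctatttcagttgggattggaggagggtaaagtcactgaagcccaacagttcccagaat
Gm26680: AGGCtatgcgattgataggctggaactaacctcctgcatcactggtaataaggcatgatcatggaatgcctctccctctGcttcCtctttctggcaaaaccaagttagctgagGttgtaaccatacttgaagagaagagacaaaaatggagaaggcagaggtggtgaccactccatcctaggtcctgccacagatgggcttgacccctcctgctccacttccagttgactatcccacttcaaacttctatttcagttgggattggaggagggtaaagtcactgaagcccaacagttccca
Gm26552: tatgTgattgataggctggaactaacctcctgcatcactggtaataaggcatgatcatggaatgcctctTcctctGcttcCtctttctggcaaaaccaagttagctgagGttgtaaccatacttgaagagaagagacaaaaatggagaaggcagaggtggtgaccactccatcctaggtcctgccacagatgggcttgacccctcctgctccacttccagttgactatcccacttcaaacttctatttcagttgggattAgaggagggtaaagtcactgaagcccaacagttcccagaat
Aligned with Gm26650, the window of Gm26680 was identical at 293 of 304 columns (96.4%) and that of Gm26552 at 294 of 300 (98.0%). Columns without a partner base count as differences. The Gm26680 window is shifted, as its RefSeq start lay 29 bases from the member start, against 25 for Gm26650. The percentages therefore do not rank the copies by substituted bases. Capitals numbered 7 in Gm26680, including the bases without a partner at its start, and 6 in Gm26552. Searched on both strands, TATAAA was in none of the 3 windows and GGGCGG in none, against 13.6% and 35.7% of 32851 RefSeq promoter windows of the same length. CCAAT was in the windows of Gm26650 and Gm26680 and not in that of Gm26552, against 37.4% of all windows. The windows held 1, 1 and 0 CG pairs. By symbol, 1158 members had an entry among the RefSeq promoters, 48 of them tested members.

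The tables held 10450 to 13872 rows at 1 FPKM or more per library, fewest in day 4 replicate 2. FPKM is the number of fragments scaled to transcript length and library size; the tables hold no read counts. The median ratio of the deposited coverage to FPKM, which scales with depth, was 0.698 and 0.929 at day 4 and 1.82 and 1.59 at day 6. Summed FPKM of 8 pluripotency markers was 741.9 and 498.3 at day 4 and 182.7 and 177.8 at day 6, with 3 of the 8 genes lower and 3 (Zfp42, Esrrb and Klf4) higher at day 6 without overlap. That of 5 primed epiblast markers was 262.1 and 486.0, then 65.9 and 63.5, with 5 of 5 genes lower without overlap. That of 8 primitive streak markers was 267.2 and 696.6, then 25.3 and 25.0, with 7 of 8 lower. Sums of later mesoderm, blood, extraembryonic endoderm, trophoblast and fibroblast markers were higher in both day 6 libraries, with 6 of 7, 6 of 7, 4 of 7, 3 of 5 and 5 of 8 genes higher without overlap. The neural sum was lower, with 1 of 5 genes lower without overlap. Most of it at day 4 was Nes (140.2 and 87.6 FPKM, then 14.3 and 5.76 at day 6), and Tubb3 was at 6.74 and 7.10, then 16.7 and 6.91 FPKM. The fibroblast sum was 10.3 and 9.78 at day 4 and 150.8 and 284.2 at day 6, with Dcn, Lum and Postn listed at 0 at day 4. The part of these cell types in the values of the members was not tested. Since these are bulk samples, fewer cells of a type and less RNA per cell cannot be told apart for any transcript below.

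Most members were listed at 0. In all 4 libraries 1994 members (62.2%) were at 0, against 53.8% of RefSeq non-coding rows and 20.4% of RefSeq coding rows. Members at 1 FPKM or more numbered 234 and 147 in day 4 replicates 1 and 2, and 242 and 231 in day 6 replicates 1 and 2. The member count in day 4 replicate 2 was the lowest, as was the count over all rows. Members held 0.610% and 0.675% of all FPKM at day 4 and 0.436% and 0.407% at day 6. A single row, Gm26825, held 860.9 of 2748 and 1979 of 3516 member FPKM at day 4. At day 6 it held 521.2 of 2173 and 525.1 of 2036. The shares therefore do not describe the members as a class. A mean of at least 1 FPKM over the 4 libraries, the level required for testing, was reached by 231 members (7.21%), 10.7% of RefSeq non-coding rows and 46.4% of RefSeq coding rows. Of these 231, which stand for 218 symbols, 86 had a mean between 1 and 2 FPKM, 30 a mean above 10 FPKM, and 70 were at 1 FPKM or more in every library.

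**Figure D1:**
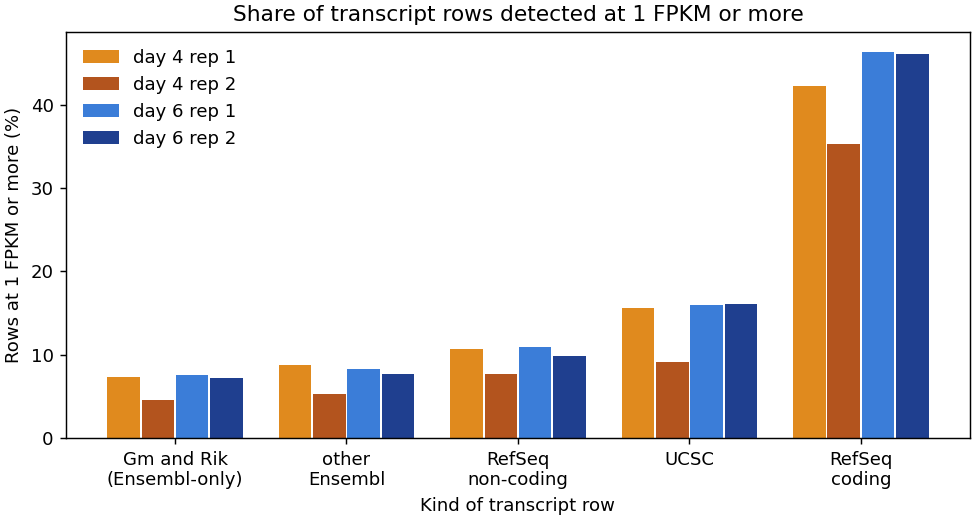
Percentage of transcript rows at 1 FPKM or more (y axis) by kind of row (x axis), 1 bar per library. Gm and Rik members reached 7.30%, 4.59%, 7.55% and 7.21% in day 4 replicates 1 and 2 and day 6 replicates 1 and 2, and RefSeq coding rows 35.3% to 46.4%.

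Where a member lies went with whether it was detected. Members whose locus overlapped a RefSeq gene on the opposite strand only were 1516 of 3204 (47.3%) but 174 of the 231 tested (75.3%). Of the 432 members more than 50 kb from any RefSeq row, 11 were tested, and of the 582 at 5 to 50 kb, 13. Gaps of up to 5 kb held 526 members with 23 tested, and overlap on the same strand 118 members with 9 tested. By GENCODE type, 122 of 1440 antisense transcripts, 73 of 1272 lincRNAs, 27 of 306 processed transcripts, 5 of 55 bidirectional promoter transcripts and 4 of 88 sense intronic transcripts were tested. None of the 14 protein-coding or 19 retained-intron members was. Spliced members made up 223 of the tested rows and single-exon members 8. The median length was 734 bases over all members and 1022 over those tested.

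Shared sequence went with detection as well. Of the 1872 members with no stretch that aligned to a RefSeq transcript at 95% identity or more, 34 (1.82%) were tested. The share was 10.8% where under 50% of the member aligned (119 of 1103). It was 38.2% (65 of 170) where at least 50% aligned to the opposite strand of a gene at the member's own locus. Among 55 members of which at least 90% was complementary to the overlapping gene, 9 of 11 were tested where that gene averaged 20 FPKM or more, and 4 of 21 where it averaged under 1 FPKM. The sources used here do not say whether quantification used strand; if it did not, reads of such a member and of the gene it overlaps cannot be told apart. Complementarity did not always come with a value: 19 of the 55 were listed at 0 in all 4 libraries, 2 of them opposite a gene at 20 FPKM or more. One of the members at 0 in all libraries was Gm17114, the whole of which is complementary to Slc6a9, a glycine transporter gene at 1.19, 1.34, 1.75 and 2.25 FPKM.

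**Figure D2:**
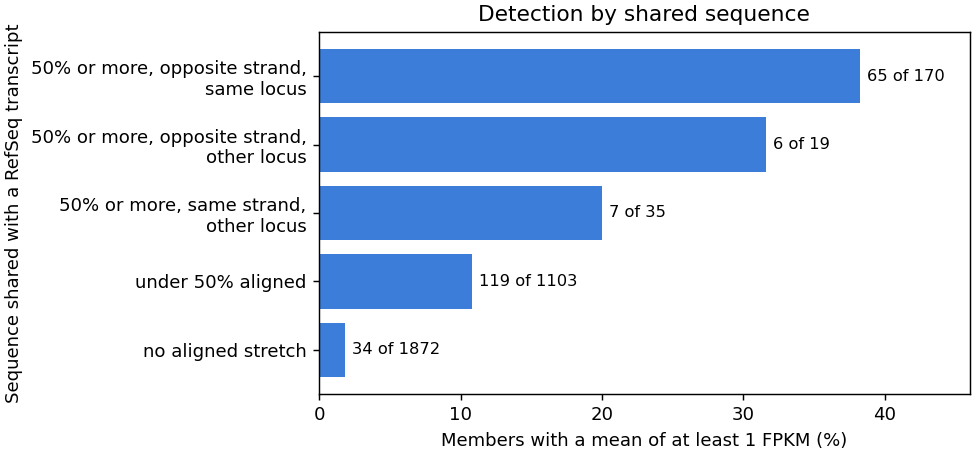
Percentage of members with a mean of at least 1 FPKM (x axis) by how much of the member aligned to a RefSeq transcript and where (y axis), with numbers of members beside the bars. The share runs from 1.82% with no aligned stretch to 38.2% with at least 50% aligned to the opposite strand at the same locus; 5 members aligned on the same strand at their own locus, none of them tested, are not drawn.

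The 2 day 4 libraries, for which the culture text gives 2 and 6 days, differed far more from each other than the 2 day 6 libraries, for which it gives 4 and 6 days; the part of these days in the differences was not tested. Over the tested members the median absolute difference between replicates, on log2(FPKM + 1), was 1.71 at day 4 and 0.31 at day 6, against 1.20 and 0.22 over all 13859 rows tested. Day 4 replicate 2 listed 82 tested members at 0 and day 4 replicate 1 listed 24, against 4 and 7 in the day 6 libraries. Of these members 78 were above 0 in day 4 replicate 1 and at 0 in replicate 2, and 20 the reverse. The difference moved with base composition: replicate 2 minus replicate 1 at day 4 had a median of -2.43 over the 21 tested members under 42% GC and 1.89 over the 36 at 58% GC or more, while over all rows the same bins had -1.80 and 1.37. At day 6 the medians of those member bins were -0.07 and -0.33. The part of GC content in the day 4 values below was not tested beyond refitting with a correction for it.

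**Figure D3:**
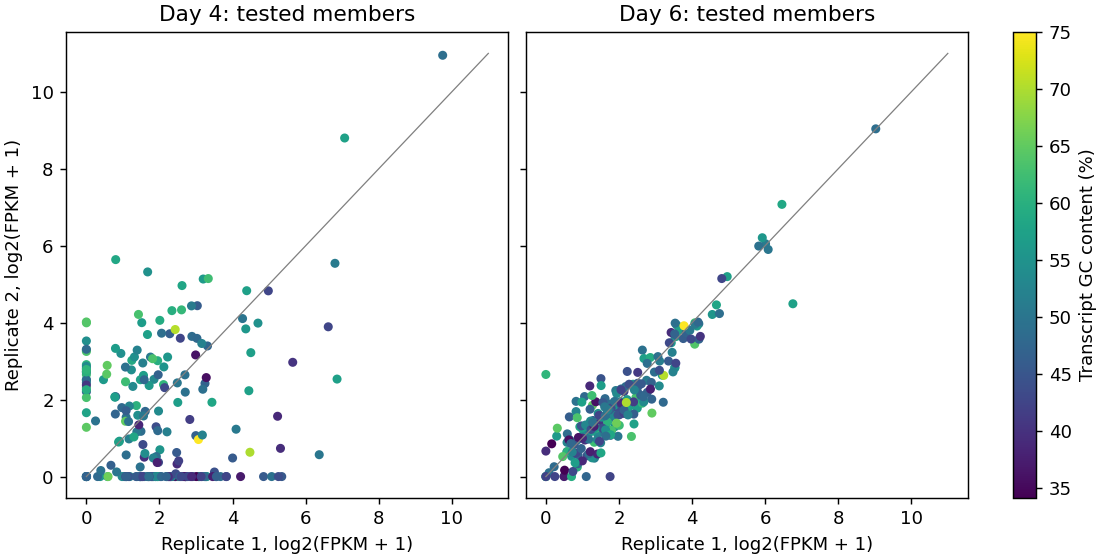
Replicate 2 against replicate 1 on log2(FPKM + 1) at day 4 (left) and day 6 (right), 1 point per tested member, coloured by the GC content of the transcript in percent. Day 6 points follow the line of equality, and day 4 points spread widely, with 82 members on the zero line of replicate 2.

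No member passed the comparison of day 6 with day 4 (limma on log2(FPKM + 1), all rows tested together, Benjamini-Hochberg adjusted p under 0.05). The smallest adjusted p among members was 0.243, and over all rows 0.0% were called. At an unadjusted p under 0.05, 27 members stood out, 20 higher and 7 lower at day 6, which is 27 of 231 against 15.0% of all rows. Both day 6 libraries lay above both day 4 libraries for 58 members (25.1%), against 39.8% of all rows tested. Both lay below for 31 members (13.4%), against 11.8% of all rows, and 142 members overlapped between days. With 2 libraries a day an exact permutation test of a single member cannot give a p below 0.333.

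The balance between higher and lower members depended on scaling. The median log2 difference (day 6 minus day 4) was 0.07 over tested members, 0.21 over RefSeq non-coding rows and 0.53 over all rows. With each library centred on its median, the counts became 36 higher and 62 lower with a median of -0.53, while all rows stood at -0.07; these are 15.6% and 26.8% of members, against 22.2% and 24.8% of all rows. Quantile normalization gave 33 higher and 68 lower (14.3% and 29.4%, against 23.9% and 25.0% of all rows). A correction for GC content gave 39 higher and 78 lower (16.9% and 33.8%, against 27.2% and 26.7% of all rows). Among the 58 members higher at day 6, 34 were listed at 0 in day 4 replicate 2 and 23 were above 0 in both day 4 libraries, whereas the 31 lower members were above 0 in all 4 libraries. Of 122 antisense members 34 were higher and 11 lower, and of 73 lincRNAs 17 and 13. Of 114 members of 200 to 1000 bases 29 were higher and 5 lower, and of 117 longer ones 29 and 26. In none of these 4 groups did the share of higher members reach the 39.8% of all rows. The share of lower rows over all rows was 11.8%. The counts of calls turned on the day 4 libraries: without day 4 replicate 1, 134 of 231 members passed (86 of them higher), against 7663 of 13859 rows (55.3%), and without day 4 replicate 2, 72 passed (31 of them higher), against 4811 rows (34.7%). These shares are near those of all rows. Both fits called 43 members, 18 of them in opposite directions, 19 higher in both and 6 lower in both.

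Of the 8 members with the largest differences towards day 6, 5 were annotated as antisense to a RefSeq gene and complementary to it over much of their length. Gm17035 (chr15:66929607-66931107) is wholly complementary to the 3′ part of Ndrg1, a stress-responsive gene that is raised as cells differentiate. Gm17035 stood at 0.744 and 48.9 FPKM at day 4, then 87.1 and 133.9 FPKM at day 6. Ndrg1 stood at 4.36 and 1.45, then 44.9 and 63.5 FPKM. Both day 6 libraries were above both at day 4, but the day 4 values of Gm17035 were far apart, and its log2 difference was 3.55 ± 1.75 (SE, n = 2 libraries a day), limma adjusted p = 0.421.

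Gm16033 (chr11:46143783-46147116), 98.8% complementary to the metalloprotease gene Adam19, had 0 in both libraries of day 4, then 9.79 and 10.1 FPKM at day 6. It had the smallest p of any member (limma adjusted p = 0.243). Of its length, 59.1% matched another member, Gm16034, at 100% identity. How reads were divided between them was not tested. Adam19 itself was at 5.24 and 3.59, then 16.6 and 20.7 FPKM, so gene and member were both higher at day 6 without overlap. Gm14820 (chrX:8049328-8074619), 59.2% complementary to Suv39h1, which encodes a histone H3 lysine methyltransferase of heterochromatin, was at 3.03 and 0.621 FPKM at day 4, then 22.5 and 17.6 FPKM at day 6, with a log2 difference of 3.03 ± 0.64 (SE) and a limma adjusted p of 0.246. Suv39h1 was at 9.45 and 1.07, then 48.8 and 58.4 FPKM.

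In 2 other cases the member was higher at day 6 while the gene across from it was not. Gm20463 (chr17:34601151-34601576), 92.4% complementary to the ubiquitin ligase gene Rnf5, was at 32.6 and 0 FPKM at day 4, then 55.7 and 62.6 FPKM at day 6. Rnf5 went the other way, with 74.9 and 27.6 FPKM at day 4, then 23.6 and 23.3 FPKM at day 6. Gm27232 (chr9:72618693-72619520), wholly complementary to Rfx7, a transcription factor gene, was at 3.55 and 0, then 10.5 and 12.1 FPKM, and Rfx7 at 8.85 and 6.08, then 5.62 and 5.06 FPKM. Neither member passed the limma test (adjusted p = 0.448 and 0.324).

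Among the 3 copies on chromosome 14, Gm26650 was at 1.13 and 0 FPKM at day 4, then 17.2 and 10.9 FPKM at day 6, with a log2 difference of 3.34 ± 0.61 (SE) and a limma adjusted p of 0.243. Gm26680 was listed at 0 throughout day 4, then stood at 6.40 and 4.45 FPKM at day 6. Gm26552 was at 4.89 and 0, then 5.04 and 3.34 FPKM, and its days overlapped. Because the 3 transcripts are so alike in the sequences above, how reads were divided among them is uncertain. Sequence is also shared beyond these 3: another member, Gm26630, matched 100% of the length of Gm26680 at 95.3% identity. Of Gm26650 and of Gm26680, 50.3% aligned on the same strand to 4933406F09Rik at another locus, which was listed at 0 in all 4 libraries. Gm26619, the transcript that shares sequence with Rps18, was at 2.77 and 0.435 FPKM at day 4, then 25.9 and 17.9 FPKM at day 6 (log2 difference 3.28 ± 0.68 SE, limma adjusted p = 0.246). Rps18 differed little over the same libraries, at 1216, 1103, 1126 and 1220 FPKM.

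**Figure D4:**
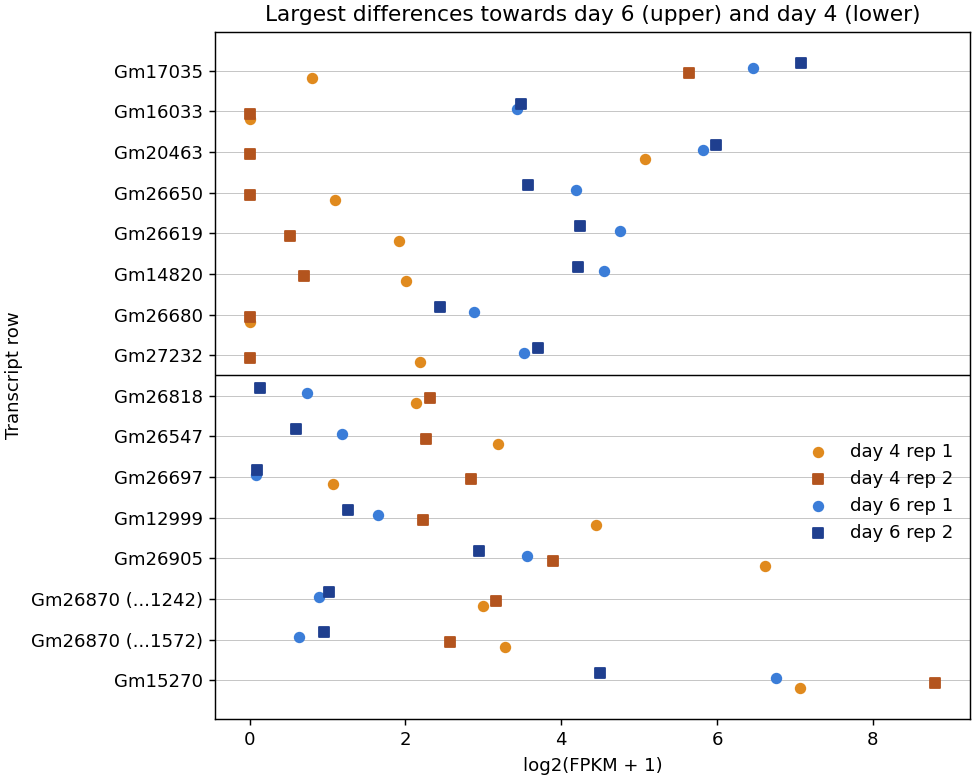
log2(FPKM + 1) in each library (x axis) for the 8 members with the largest differences towards day 6 (upper part) and the 8 rows with the largest towards day 4 (lower part) among members whose days did not overlap; both rows of Gm26870 are labelled by the end of their transcript ID. Gm16033 and Gm26680 sit at 0 in both day 4 libraries, and Gm20463 and Gm27232 have a day 4 point at 0 beside one well above it.

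The largest difference towards day 4 was that of Gm15270 (chr10:24595249-24597108), a processed transcript 62.5% complementary to Ccn2, a secreted matricellular protein gene also known as Ctgf. Gm15270 was at 133.2 and 445.0 FPKM at day 4, then 107.4 and 21.5 FPKM at day 6, with a log2 difference of -2.31 ± 1.08 (SE) and a limma adjusted p of 0.406. Its day 4 and day 6 values came close, and Ccn2 (17.4 and 38.2, then 39.9 and 10.6 FPKM) overlapped between days. Within each day the higher library of Gm15270 was also the higher of Ccn2.

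The lincRNA Gm26870 was lower at day 6 in both of its tested rows. These 2 rows lie at chr9:3000282-3018084 and chr9:3017875-3038310, near the start of the assembled chromosome and 172185 and 151959 bases from the nearest RefSeq row. One row was at 6.95 and 7.95 FPKM at day 4, then 0.855 and 1.02 FPKM at day 6 (log2 difference -2.12 ± 0.43 SE, limma adjusted p = 0.246). The other was at 8.72 and 4.95, then 0.550 and 0.935 FPKM (limma adjusted p = 0.25). Neither aligned to a RefSeq transcript, and their GC contents were 36.2% and 35.6%. The 2 loci overlap at their ends. Sequence shared between rows of the same symbol was not searched for, so these rows may not be independent.

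Gm26818, a lincRNA on the X chromosome, was at 3.41 and 3.97 FPKM at day 4, then 0.669 and 0.0957 FPKM at day 6 (limma adjusted p = 0.264). Gm26547, a lincRNA on chromosome 17, was at 8.10 and 3.82, then 1.27 and 0.511 FPKM. Gm26547 shared 79.2% of its length with another member, Gm26686, at 97.6% identity, and reads of such copies may be split between them. Of the length of Gm26547, 64.5% also aligned on the same strand to the RefSeq gene Gm17644 at another locus, at 3.79 and 0.260, then 1.82 and 1.21 FPKM. Gm26697 begins within 1 kb of Slc27a2, a very long-chain acyl-CoA synthetase gene, on the other strand. Gm26697 was at 1.10 and 6.19 FPKM at day 4, then 0.0628 and 0.0718 FPKM at day 6. Slc27a2 was at 3.83 and 3.24, then 0.141 and 0.161 FPKM, so both transcripts of that pair were lower at day 6 without overlap. Their loci share 639 bases.

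The other 2 of the 8 rows had day 4 replicates that differed more. Gm26905, a lincRNA inside Galntl6 on the opposite strand, was at 97.3 and 13.9 FPKM at day 4, then 10.8 and 6.71 FPKM at day 6, while Galntl6 was listed at 0 throughout. Of its length, 68.5% aligned on the same strand to D10Wsu102e at another locus, which was at 25.7 and 4.49, then 14.9 and 16.8 FPKM. Gm12999 was at 20.8 and 3.70, then 2.15 and 1.41 FPKM, opposite Atpif1, the inhibitor of mitochondrial ATP synthase, at 487.8 and 94.4, then 396.7 and 502.4 FPKM.

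The most abundant member was Gm26825, the transcript complementary to Hspa8. It stood at 860.9 and 1979 FPKM at day 4, then 521.2 and 525.1 FPKM at day 6, higher at day 4 without overlap (log2 difference -1.32 ± 0.63 SE, limma adjusted p = 0.412). Hspa8 was at 1360, 1443, 1253 and 1387 FPKM, and the nearest RefSeq gene, Steap1, a metalloreductase gene 32213 bases away, at 11.6, 2.63, 8.08 and 6.74 FPKM. Gm26751 (chr14:55864311-55874735), wholly complementary to Nynrin, had the closest day 4 replicates of the 8 most abundant members, with 19.6 and 13.3 FPKM at day 4, then 59.7 and 72.9 FPKM at day 6 (log2 difference 1.96 ± 0.47 SE, limma adjusted p = 0.254). It exceeded Nynrin (3.34 and 21.8, then 17.8 and 26.3 FPKM) in 3 of the 4 libraries.

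Gm17134 lies within Plppr3 and is complementary to the end of Ptbp1, a splicing regulator gene. Gm17134 was at 110.7 and 45.6, then 63.5 and 65.3 FPKM, with overlapping days. The summed Ptbp1 rows were uneven the other way at day 4 (123.1 and 526.6, then 274.8 and 275.5 FPKM). Gm17494 was at 81.9 and 0.483 FPKM at day 4, then 66.8 and 58.9 FPKM at day 6. A part of Gm17494 (40.8%) is complementary to Ppia, the gene of cyclophilin A. The summed Ppia rows were similarly uneven at day 4 (1091 and 28.3, then 2158 and 2194 FPKM). The nearest RefSeq row, of Gclm, was uneven the other way (10.7 and 43.1, then 10.4 and 12.2 FPKM). For Gm17134, Gm17035 and Gm15270 the deposited FPKM fell outside its own deposited interval in at least 1 library, as for no other tested member.

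Across pairs, the log2 differences of members were weakly related to those of their nearest RefSeq rows. In 178 pairs both rows reached a mean of 1 FPKM, and Spearman's rho across them was 0.273, a description across transcripts that share libraries, depth and base composition. The sign was the same in 107 of the 178 pairs, and the mean FPKM of the member was above that of its neighbour in 38. In the 146 pairs with overlapping loci rho was 0.32, and in the 32 pairs with a gap it was -0.0356. It was 0.444 in the 51 overlapping pairs in which at least 50% of the member aligned to that neighbour and 0.273 in the 95 in which less did. For the 38 pairs whose 5′ ends lay within 1 kb on opposite strands, rho was 0.455. This class did not ask whether the transcripts run apart or across each other. It includes overlapping pairs, such as Gm12999 with Atpif1 (915 shared bases) and Gm26697 with Slc27a2 (639 shared bases), so it does not stand for divergent promoters.

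**Figure D5:**
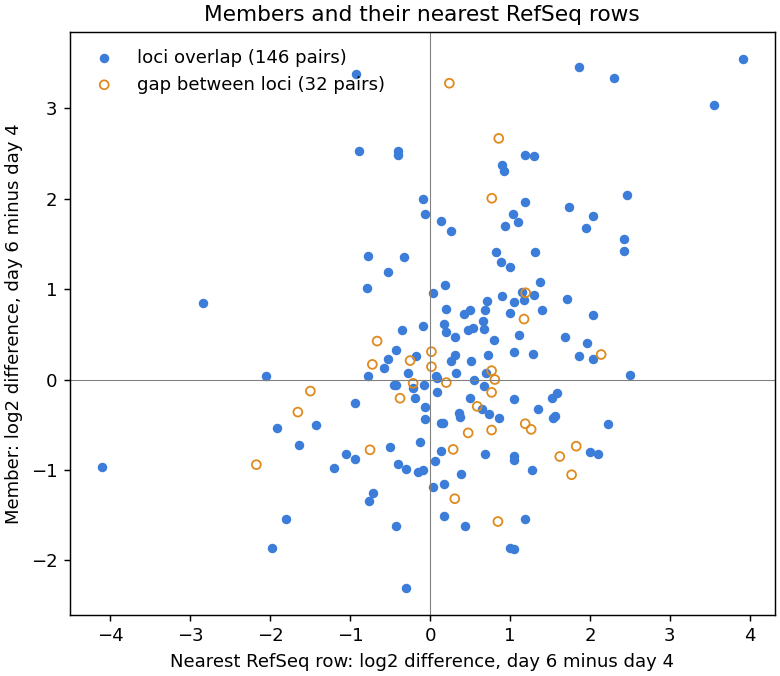
log2 difference, day 6 minus day 4 on log2(FPKM + 1), of each member (y axis) against that of its nearest RefSeq row (x axis); filled points are 146 pairs with overlapping loci and open points 32 pairs with a gap. Points scatter over all quadrants, with 107 of 178 pairs of the same sign.

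The days separated in some pairs with 5′ ends within 1 kb on opposite strands and not in others. Gm26737 starts beside Rnf26 and was at 6.51 and 0, then 10.6 and 14.9 FPKM, with Rnf26 at 15.3 and 13.3, then 26.2 and 29.8 FPKM. Gm9828, the highest bidirectional promoter transcript, was at 21.3 and 0.55 FPKM at day 4, then 3.60 and 2.80 FPKM at day 6. It overlaps Btf3, a transcription and nascent-chain factor gene, by 585 bases on the opposite strand. Btf3 was at 421.9 and 7.07, then 239.1 and 310.1 FPKM. Day 4 replicate 2 was the lowest library for both transcripts of that pair. Where day 4 replicate 1 alone was compared, Gm9828 and Btf3 were both higher than at day 6.

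Few members lay next to genes that mark the lineages of these cells. The nearest RefSeq row was a gene of a list of pluripotency, streak, mesoderm, endoderm and Hox genes for 27 members; 17 of these were listed at 0 in all 4 libraries, and 2 were tested. Gm19553 (chr17:35509077-35510551) is antisense to Pou5f1, the gene of the pluripotency factor OCT4. Gm19553 was at 115.2 and 4.79 FPKM at day 4, then 11.6 and 13.0 FPKM at day 6, and overlapped between days, while the summed Pou5f1 rows were at 368.0 and 376.5, then 54.9 and 41.99 FPKM. Gm26906 is antisense to Meg3, an imprinted non-coding RNA gene, and was at 8.03 and 1.11, then 10.2 and 5.59 FPKM. Below the level tested, 2700033N17Rik beside Meis2 was listed at 0 throughout day 4, then at 1.25 and 2.45 FPKM at day 6. 5033428I22Rik beside Hand2 was listed at 0, then at 0.267 and 0.306 FPKM. The days overlapped for Gm13061 at Lin28a (1.155 and 0, then 0.595 and 0.683 FPKM) and Gm15222 at Bmp4 (0 and 0, then 0 and 1.86 FPKM). The rest with any value were above 0 only at day 6. Depth was lower at day 4, and its part in these zeros was not tested. No member lay within 100 kb of Evx1, and the 2 members nearest a Hox gene were listed at 0 throughout.

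Rik members were fewer than Gm members. Of 615, 359 were listed at 0 in all libraries, against 1635 of 2589 Gm members. The median of the mean FPKM of tested members was 2.70 for Rik and 2.71 for Gm names. Of the Rik members 30 were tested (4.88%, against 7.76% of Gm members). Without overlap 6 were higher and 6 lower at day 6, against 39.8% and 11.8% of all rows tested. The highest mean among tested Rik members was 20.2 FPKM. That was A230087F16Rik, antisense to the kinase gene Cdc42bpb, at 5.14 and 30.2, then 24.4 and 21.1 FPKM. 4933427J07Rik had the smallest p among Rik members, at 8.95 and 9.52 FPKM at day 4, then 2.19 and 1.93 FPKM at day 6 (limma adjusted p = 0.262). Of its length, 63.5% matched another member, Gm26905, at 96.3% identity. A share of 50.4% aligned on the same strand to 4930470H14Rik at another locus, at 9.05 and 49.1, then 7.72 and 3.72 FPKM. How reads were divided among them was not tested.

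Several symbols had more than one tested row, and the rows did not always move together. Of the 386 symbols with 2 or more member rows, 11 had at least 2 tested rows. The B130055M24Rik rows, opposite Zfp689, exchanged places at day 4: one was at 2.89 FPKM in replicate 1 and near 0 in replicate 2, and the other near 0 in replicate 1 and at 10.5 FPKM in replicate 2. One Gm27241 row, opposite Rfx7, was at 39.7 and 0, then 1.95 and 2.80 FPKM, and the other at 5.04 and 0, then 14.7 and 10.9 FPKM. Summed over rows, Gm27241 was at 44.7 and 0, then 16.7 and 13.7 FPKM. Summing all rows of a symbol left 56 of 220 member symbols higher (25.5%) and 30 lower (13.6%) at day 6 without overlap. Over all symbols summed in this way the shares were 41.6% and 11.5%. None passed the test.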

How the data were processed

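RNA of 2 day 4 and 2 day 6 libraries was measured. The submitters' processing notes name CASAVA, TopHat2 2.0.11 and mm10, with no roles; quantifier, annotation and strand setting were not given in the sources used here. The authors deposited FPKM per transcript with an interval, and coverage, an unscaled signal used only to describe depth. Symbols came from GENCODE M21 by transcript ID; 88 Ensembl rows had none. The nearest RefSeq row was that with the smallest gap between loci, overlaps by most shared bases. Sequence sharing used blastn 2.17.0 at 95% identity. log2 values of the deposited FPKM plus 1 were tested with limma 3.58.1 (R 4.3.3) over the 13859 rows with a mean of at least 1 FPKM. The fit was first checked on simulated data with equal noise on both days, unrelated to GC content. That check does not cover the wider, GC-related spread of the day 4 libraries. By the deposited status, 0 members had a failed estimate and 19 had low data in any library. Among tested members 1 had either status. A value of 0 need not mean absence, so values are given per library. Days overlap unless both libraries of one day lie above both of the other. Members named were the 8 largest positive and negative differences without overlap, the 8 highest means, the highest of each transcript type and those beside lineage genes; others were chosen after their values were seen. The members and lists were chosen with earlier results of these data known. Alternatives changed the pseudocount, filter, scaling, libraries, block, trend and row summing.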

Additional observations from a re-analysis of the deposited data

How the results depend on the processing

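No member passed in any fit that kept both day 4 libraries. The number passing was 0 to 134 over the fits that left out a library, 134 without day 4 replicate 1 and 72 without day 4 replicate 2. Those fits gave 65 to 126 members higher and 36 to 99 lower without overlap, medians of 0.0057 to 0.4879, and rank correlations of 0.234 to 0.338. A fit that leaves a day with 1 library assumes that it varies like the rest. Lowering the filter to 0.1 FPKM gave 229 higher and 48 lower of 755 (30.3% and 6.36%, all rows 38.9% and 10.9%), and no filter 325 and 53 of 3204 (10.1% and 1.65%, all rows 25.8% and 7.07%) with a rank correlation of 0.161. Median centring gave 36 higher, 62 lower and a median of -0.5323; quantile normalization 33, 68 and -0.5681; GC correction 78 lower and -0.3402. A pseudocount of 0.1 FPKM moved the median to 0.4616. Without overlapping pairs the rank correlation was -0.0356. Of 24 named members tested, 18 kept their sign in every alternative. Without day 4 replicate 1 and without day 4 replicate 2, the log2 differences were 0.4879 and -0.7723 for Gm17134, 1.2306 and -2.6038 for Gm17491, 1.2007 and -3.1252 for Gm19553, 1.4315 and -2.4128 for Gm9828, 5.4251 and -0.379 for Gm17494, and 2.0197 and -0.0748 for Gm26906. Gm17491 also changed sign with a pseudocount of 0.1 FPKM (0.3235). The cause was not tested. Deviations from the day means did not go together in same-numbered libraries (r = -0.0737). Because the day 4 deviations moved with GC content, this value cannot show whether the numbers pair the libraries. With a replicate block 0 members and 1 row passed. Without a trend 0 members passed. Depth was lower at day 4; its part in the zero values was not tested.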
